A study of Mus musculus with 9 samples.

Results

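The BCL-2 family decides whether a cell commits to death through its mitochondria. Pro-survival members (Bcl2, Bcl2l1, which encodes BCL-XL, and Mcl1) hold back the pore-forming effectors BAX and BAK, and the BH3-only members (Bid, Bcl2l11, which encodes BIM, Bbc3 for PUMA, Pmaip1 for NOXA, and Bad) release or activate those effectors. In regulatory T (Treg) cells, the CD4 T cells that restrain immune responses, survival depends on interleukin-2 and on the balance between MCL1 and BIM. The members were 10 genes fixed by name (Bcl2, Bcl2l1, Mcl1, Bid, Bcl2l11, Bax, Bak1, Bbc3, Pmaip1 and Bad), and every probe set whose only gene symbol was one of them was taken. This gave 11 probe sets for 9 of the 10 genes, out of 22180 genes in the table. Bcl2 and Mcl1 had 2 probe sets each, and the one with the higher mean stood for the gene. No probe set was paired with Bax alone in the annotation used here, so its level is not analysed.

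Transcripts were measured on 1 microarray per sample in 5 wild-type and 4 Mst1/Mst2-null Treg cell samples, all of the C57BL/6 strain. The groups differ by loss of Mst1 (Stk4) and Mst2 (Stk3), the upstream kinases of the Hippo pathway, and the study's title sets the question of how they act on the interleukin-2 receptor and its factor STAT5. Wild-type donors were Foxp3YFP-Cre mice and null donors Foxp3YFP-CreStk4f/fStk3f/f mice, so both groups carried YFP and Cre at Foxp3. By this design Cre is meant to act in cells that express Foxp3 or descend from such cells. Where it acted was not tested. Donor marrow (CD45.2+) had been mixed 1 to 1 with wild-type CD45.1 marrow and given 2 months earlier to RAG1-/- recipients, which make no mature T or B cells of their own, and the sort took CD4+ YFP+ cells that carried CD45.2 and lacked CD45.1. The ages of the mice are not stated in the labels. The labels also leave unstated if each sample was a different chimera, so the p-values rest on a spread between samples that may be technical.

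Values are log2 RMA values, levels are compared only within a probe set, and differences are given as the null mean minus the wild-type mean. All 6 Treg cell markers read were above the median probe set, with Foxp3 between 10.66 and 10.77 in wild type and between 10.59 and 10.79 in null samples. Their mean log2 level was nonetheless lower in null samples without overlap (9.98 to 10.06 in wild type, 9.70 to 9.86 in null samples). Ikzf2, the gene of the Treg cell factor Helios, fell (difference -0.72, limma adjusted p = 0.0330), Cd3e was lower without overlap (-0.31, limma adjusted p = 0.0619), and Cd4 (-0.18), Ctla4 (-0.088) and Il2ra (0.056) overlapped and did not pass. Stk4 had values of 7.84 to 8.09 in wild type and 7.50 to 7.83 in null samples (limma adjusted p = 0.146), from a probe set that need not cover the deleted exons, and Stk3 is not analysed here. Over all genes, null arrays agreed less with each other (mean correlation with the other arrays of the group from 0.987 to 0.989) than wild-type arrays did (0.993 to 0.994). The limma test called 515 genes, 95 higher and 420 lower in null samples. Quantile normalisation of the same values moved that split to 170 higher and 306 lower.

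Among the 9 measured members, 1 gene passed the test over all genes, the BH3-only gene Bid, which fell. None rose, and 8 did not pass. The share of all genes called was 2.32% in either direction and 1.89% for lower levels in null samples. The differences of the 9 members ran from -0.50 to 0.43 with a median of -0.047, beside a median of 0.0023 over all genes. The median size of a difference was 0.21 in the members and 0.088 over all genes. These sets are not matched for level: 8 of the 9 members lay above the median probe set, but only 11321 of all 22180 genes. In a fit to those 11321 genes alone the median difference was -0.037, close to that of the members. That fit called 703 genes, Bid among them. In the fit to all genes, 4 members (Bid, Bcl2, Bcl2l1 and Bcl2l11) had an unadjusted limma p under 0.05, beside 14.9% of all genes. The members were chosen with earlier results of these data known, so such shares are no test of them.

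**Figure D1:**
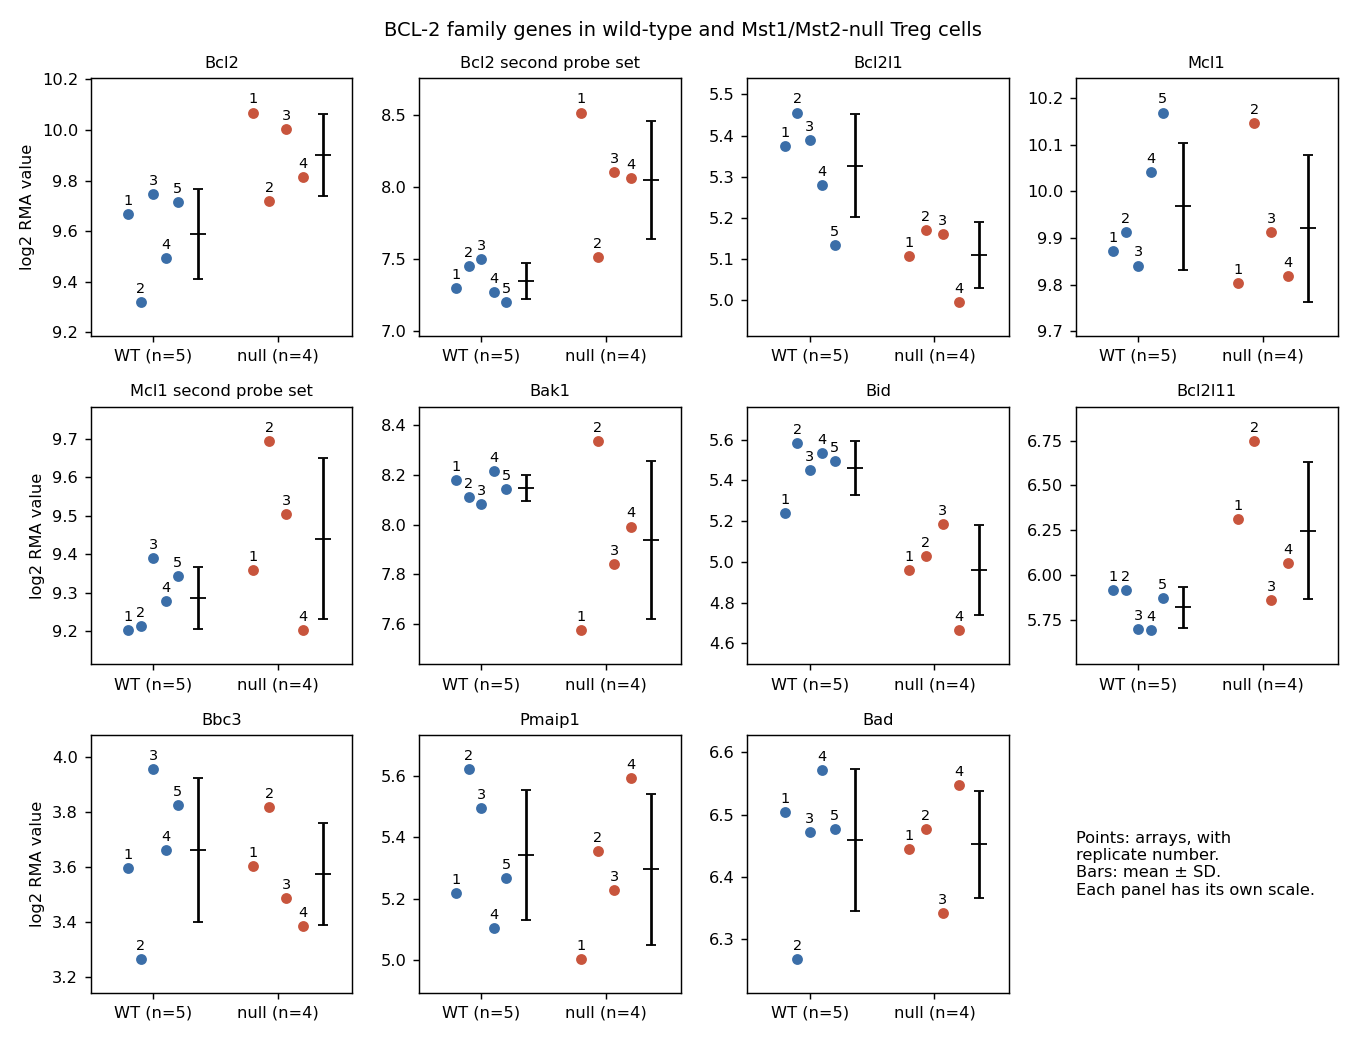
Log2 RMA value (vertical axis, its own scale in each panel) of the 11 probe sets in 5 wild-type (blue) and 4 null (red) arrays, each point numbered by replicate, with the mean ± SD beside the points. Bid and the other probe set of Bcl2 are the panels in which the groups do not overlap, with Bid lower and that Bcl2 probe set higher in null samples.

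Pro-survival members came first. Bcl2, which binds and holds BIM and other BH3-only proteins, measured 9.67, 9.32, 9.75, 9.49 and 9.71 in wild-type arrays 1 to 5 and 10.07, 9.72, 10.004 and 9.81 in null arrays 1 to 4. Every null value lay above the wild-type mean, and 3 of the 4 above the highest wild-type value, with null array 2 inside the wild-type range. The difference was 0.31 ± 0.11 (SE; 95% interval 0.075 to 0.55), a 1.24-fold higher level that missed the threshold (limma adjusted p = 0.187; exact two-sided permutation p = 0.0317).

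The other probe set of Bcl2 gave a larger difference in the same direction. It measured 7.30, 7.45, 7.50, 7.27 and 7.20 in wild type and 8.52, 7.51, 8.10 and 8.06 in null samples. The groups did not overlap, but null array 2 lay just above the highest wild-type value while the other 3 null arrays were at least 8.06. Means were 7.34 ± 0.13 (SD, n = 5) and 8.05 ± 0.41 (SD, n = 4), a difference of 0.71 ± 0.18 (SE; 95% interval 0.31 to 1.101). In the fit over all 41345 probe sets this did not pass (limma adjusted p = 0.113), where 1.28% of probe sets were called. With both probe sets averaged, the difference of Bcl2 was 0.51 and again did not pass (limma adjusted p = 0.0597). The labels do not state which part of the gene either probe set covers.

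Bcl2l1 encodes BCL-XL, a pro-survival protein often induced on T cell activation. It measured 5.38, 5.46, 5.39, 5.28 and 5.13 in wild type and 5.11, 5.17, 5.16 and 5.00 in null samples. All 4 null values were below the wild-type mean, but wild-type array 5 lay among them, so the groups overlapped. The difference of -0.22 ± 0.077 (SE; 95% interval -0.39 to -0.046) did not pass (limma adjusted p = 0.204; exact two-sided permutation p = 0.0317).

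Mcl1, a short-lived pro-survival protein that Treg cells require, measured 9.87, 9.91, 9.84, 10.04 and 10.17 in wild type and 9.80, 10.15, 9.91 and 9.82 in null samples. The groups shared almost their whole range. The difference was -0.047 (95% interval -0.26 to 0.16, limma adjusted p = 0.875), an interval that excludes a change in mean signal beyond 1.19-fold lower or 1.12-fold higher in this probe set. The other probe set of Mcl1 had the opposite sign, with wild-type values from 9.20 to 9.39 and null values of 9.36, 9.69, 9.50 and 9.20 (difference 0.15, 95% interval -0.072 to 0.38, limma adjusted p = 0.593). No direction is therefore given for Mcl1.

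Of the pore-forming effectors, Bak1 (BAK) was measured. Wild-type values were 8.18, 8.11, 8.08, 8.21 and 8.14, and null values 7.57, 8.34, 7.84 and 7.99. Wild-type arrays were tight (SD 0.053, n = 5) and null arrays spread on both sides of them (SD 0.32, n = 4), with 3 below the lowest wild-type value and array 2 above the highest. The difference of -0.21 ± 0.13 (SE; 95% interval -0.49 to 0.072) did not pass (limma adjusted p = 0.505). Its size turned on single null arrays: it was -0.089 without null array 1 (limma adjusted p = 0.783) and -0.34 without null array 2 (0.0975). With null arrays 2 and 4 left out together Bak1 was the member that passed, at -0.44 (limma adjusted p = 0.0382).

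The BH3-only gene Bid encodes the link from death receptors to mitochondria: caspase-8 or granzyme B cuts the protein, and the cut form engages BAX and BAK. It measured 5.24, 5.58, 5.45, 5.54 and 5.50 in wild type and 4.96, 5.03, 5.19 and 4.66 in null samples. Every null value was below every wild-type value, with null array 3 and wild-type array 1 the closest and null array 4 the lowest. The mean fell from 5.46 ± 0.13 (SD, n = 5) to 4.96 ± 0.22 (SD, n = 4), a difference of -0.50 ± 0.11 (SE; 95% interval -0.74 to -0.26), or 1.41-fold (limma adjusted p = 0.0438; exact two-sided permutation p = 0.0159, where these group sizes allow 0.0079 at the least). Groups without overlap were found for 6.16% of all genes, 4.4% with lower and 1.76% with higher null values, and for 1 of the 9 members. Arrays of sorted cells cannot tell less RNA per cell from fewer cells of a type that expresses the gene.

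The direction for Bid held in all 19 alternatives, with differences from -0.58 to -0.39, while the call held in 7. As its groups do not overlap, leaving out arrays could not change the direction. With 1 probe set, the probe set rules, the filter on dim genes and the eBayes settings could not move the difference either. It was lost on leaving out wild-type array 2 (limma adjusted p = 0.114), 3 (0.0921), 4 (0.111) or 5 (0.0967), or null array 1 (0.102), 2 (0.0608) or 4 (0.0609), and kept without wild-type array 1 (0.0416) or null array 3 (0.0395). Quantile normalisation (0.0893), the fit over every probe set (0.0832) and a covariate for the heat shock genes Hspa1a and Hspa1b (0.0608) also ended it. The means of the B cell and the myeloid markers were highest in null array 4, where Bid was lowest. The mean of the CD8 T and NK cell markers was highest in null array 2. Single markers differed: Cd79a, Jchain, Itgam, Csf1r, Cst3, Fcer1g, Klrb1c, Ncr1 and Eomes were highest in other arrays than their list mean. The remaining markers of these lists were highest in the same array as the mean. The mean log2 level of 7 B and plasma cell markers was 4.48 to 5.52 in wild type and 4.88 to 5.74 in null samples, and that of 8 myeloid markers 4.67 to 5.57 and 4.77 to 6.30, with Ebf1, Itgam and Cd14 under the median probe set (4.05). The 6 markers of CD8 T and NK cells gave 3.85 to 4.15 and 4.11 to 4.41, with Klrb1c, Ncr1, Klrd1 and Eomes below that median. None of these 21 markers passed the test, but most leaned higher in null samples. All 7 B and plasma cell markers had positive differences, from 0.015 for Cd79b to 0.81 for Jchain (limma adjusted p = 0.469). Cd8b1 had a difference of 0.55 (limma adjusted p = 0.133) and Fcer1g of 0.41 (limma adjusted p = 0.202). Cst3, S100a8 and Klrb1c were the markers with negative differences. The Treg cell marker mean, lower in null samples as given above, was also lowest in null array 4 (9.70). The part of these markers in the result was not tested. Without null array 4 the difference of Bid was -0.40, and without null arrays 2 and 4 it was -0.39 (limma adjusted p = 0.110).

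**Figure D2:**
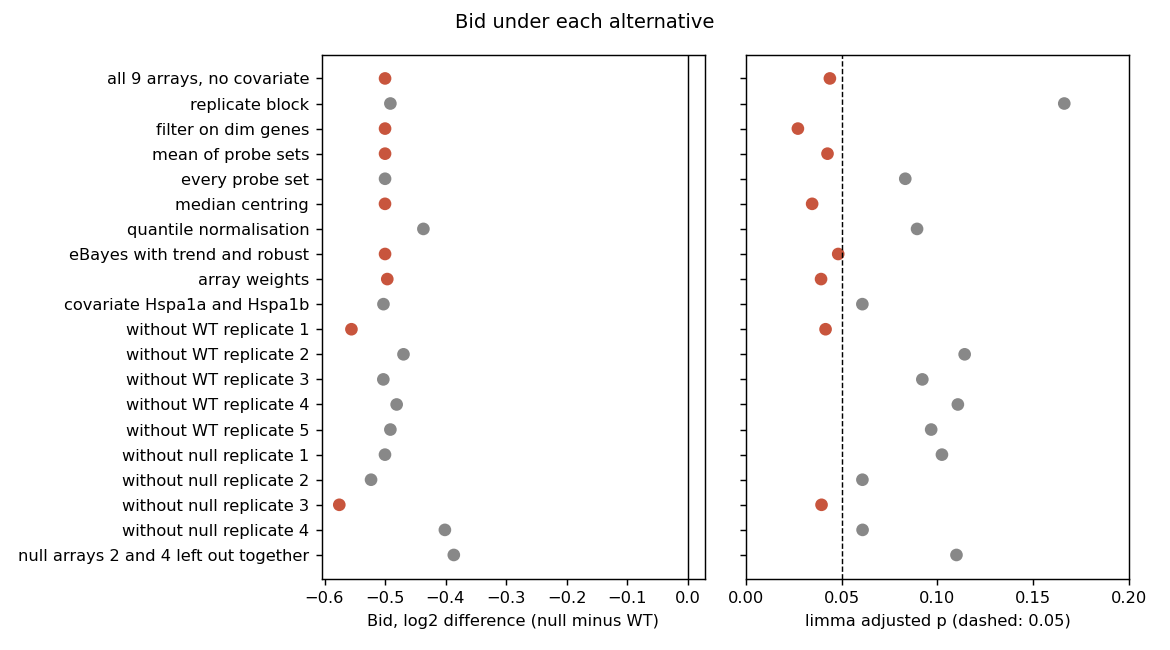
Log2 difference of Bid, null minus wild type (left), and its limma adjusted p (right, dashed line at 0.05) in the fit to all 9 arrays and under 19 alternatives; red points pass the test. All differences lie between -0.58 and -0.39, and the adjusted p lies on both sides of the line, from 0.0271 with a filter on dim genes to 0.166 at the most.

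Bcl2l11 encodes BIM, the BH3-only protein that limits the number of Treg cells and other lymphocytes when survival signals run low. It measured 5.92, 5.92, 5.70, 5.69 and 5.87 in wild type and 6.31, 6.75, 5.86 and 6.07 in null samples. All 4 null values lay above the wild-type mean and 3 above the highest wild-type value, array 2 being the highest and array 3 inside the wild-type range. The difference was 0.43 ± 0.15 (SE; 95% interval 0.086 to 0.77), 1.35-fold higher, and did not pass (limma adjusted p = 0.211; exact two-sided permutation p = 0.0317). Without null array 2 the difference was 0.26 (limma adjusted p = 0.278).

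The remaining BH3-only members showed differences close to 0 with wide overlap. Bbc3 (PUMA, induced by p53 and FOXO3) had means of 3.66 in wild type and 3.57 in null samples, under the midpoint of the table (the median probe set, 4.05), so a real signal above background cannot be assumed. Wild-type values ran from 3.26 to 3.95 and null values from 3.39 to 3.82 (difference -0.086, limma adjusted p = 0.839), and no fold is given. Pmaip1 (NOXA, which binds MCL1) measured 5.22, 5.62, 5.50, 5.10 and 5.27 in wild type and 5.00, 5.36, 5.23 and 5.59 in null samples. The difference was -0.046 (95% interval -0.34 to 0.25, limma adjusted p = 0.917).

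Bad, a BH3-only protein that survival kinases inactivate by phosphorylation, measured 6.27 to 6.57 in wild type (median 6.48) and 6.45, 6.48, 6.34 and 6.55 in null samples. Its interval was the narrowest of the members (difference -0.0061, 95% interval -0.17 to 0.16, limma adjusted p = 0.983). Transcript level does not show phosphorylation, which these arrays do not measure.

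**Figure D3:**
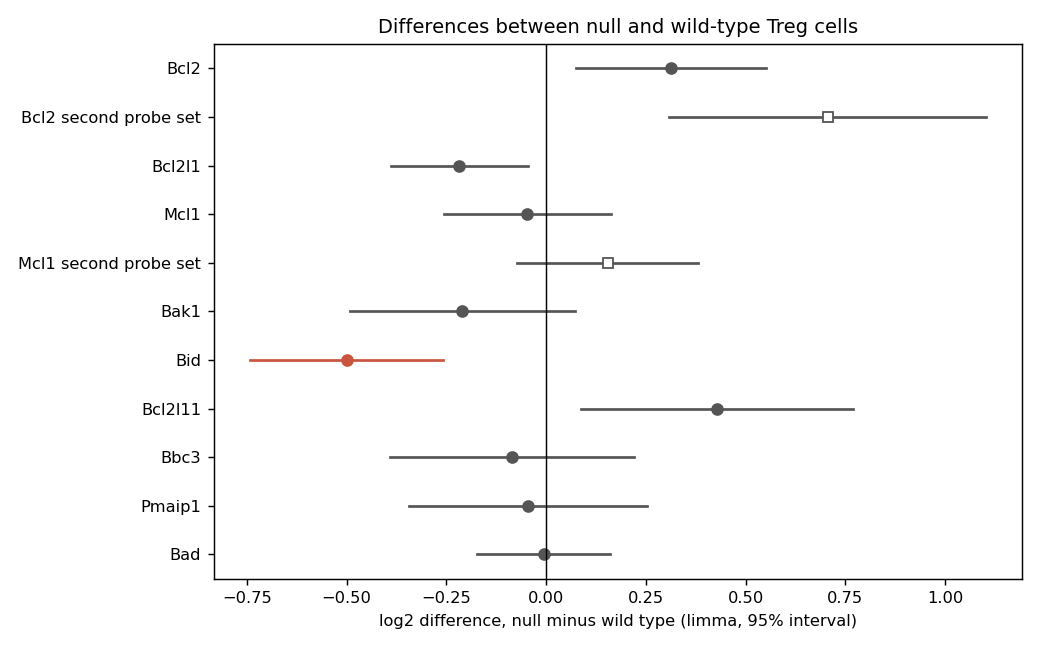
Log2 difference, null minus wild type (horizontal axis), with its 95% interval from limma for the 11 probe sets; circles are the probe sets that stand for a gene, open squares the other probe sets of Bcl2 and Mcl1, and red marks an adjusted p under 0.05. Bid is the 1 red entry at -0.50, while Bcl2, its other probe set, Bcl2l1 and Bcl2l11 have intervals that leave out 0 without passing the adjusted test.

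The null arrays differed among themselves in several members. Null array 2 had the highest value of the null arrays in 5 of the 9 members (Mcl1, Bcl2l1, Bcl2l11, Bak1 and Bbc3) and the lowest in Bcl2, as in the other probe set of Bcl2. Null array 1 showed the reverse in Bcl2, Mcl1 and Bak1, with the highest Bcl2 and the lowest Mcl1 and Bak1. Over all genes, null array 2 was the highest or lowest null array in 56% of cases, and the SD was larger in null than in wild-type samples in 5 of the 9 members and in 59.2% of all genes.

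Members whose proteins bind each other were compared by the difference of their transcript signals within each array, for 3 pairs. Protein was not measured, so this is no balance of proteins. Mcl1 minus Bcl2l11 was 3.96, 4.00, 4.14, 4.35 and 4.30 in wild type and 3.49, 3.40, 4.05 and 3.75 in null samples. Of the null arrays, 3 lay below every wild-type value and array 3 lay among them. The mean was lower by 0.475 log2 units in null samples, and over the 3 pairs the adjusted p was 0.0952 (exact two-sided permutation p = 0.0317 before adjustment), so the shift did not pass. Most of the shift lay in Bcl2l11, whose own difference was 0.43, beside -0.047 for Mcl1. The shift was -0.37 with averaged probe sets (exact permutation adjusted p = 0.143) and -0.38 without null arrays 2 and 4 (exact permutation adjusted p = 0.571). Bcl2 minus Bcl2l11 had means of 3.77 ± 0.23 (SD, n = 5) and 3.65 ± 0.49 (SD, n = 4), with null array 2 at 2.97 below all other arrays and null array 3 at 4.14 above them. The difference of -0.12 did not pass (exact permutation adjusted p = 0.988) and was 0.11 without null array 2. Mcl1 minus Pmaip1 was the same in both groups to within -0.0014 (exact permutation adjusted p = 0.992), with 4.29 to 4.94 as the wild-type range and 4.23 to 4.80 as the null range.

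**Figure D4:**
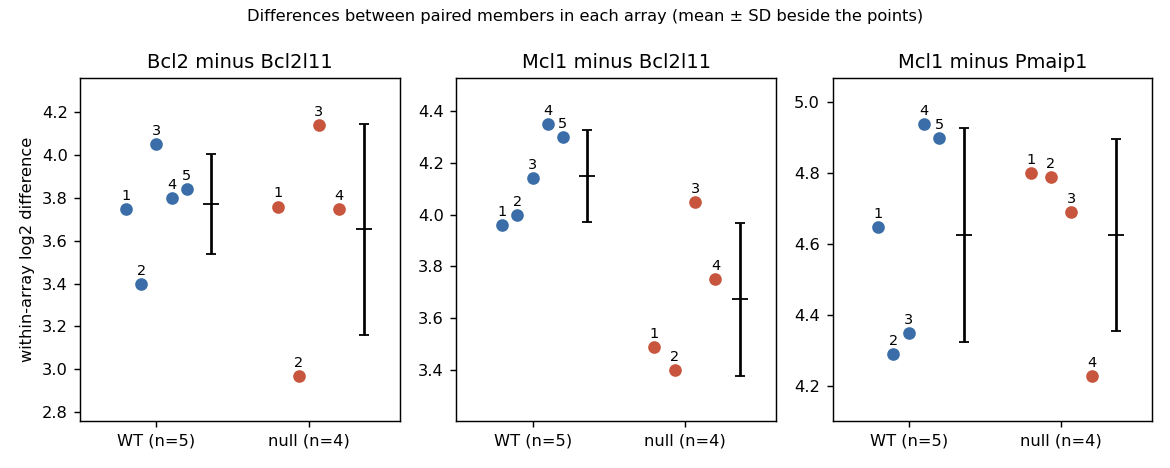
Within-array log2 difference between pairs of members whose proteins bind each other (vertical axis) in 5 wild-type (blue) and 4 null (red) arrays, numbered by replicate, with the mean ± SD beside the points. Mcl1 minus Bcl2l11 is lower in 3 of the 4 null arrays than in any wild-type array, and the other pairs overlap.

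Promoter sequences are shown for 3 BH3-only genes: Bid, as the member that fell, and Bcl2l11 and Bbc3, whose promoters hold the letters that FOXO factors recognise. FOXO factors are activators of both latter genes in cells deprived of growth factor, and STAT5 is the factor named in the study's title. Sequences are the 250 bases before an annotated start, from RefSeq on GRCm38.p6, written 5′ to 3′ on the gene's strand, with a motif match in capitals. The Bid window is chr6:120916825-120917074 (minus strand), that of Bcl2l11 chr2:128125788-128126037 (plus strand) and that of Bbc3 chr7:16310011-16310260 (plus strand).
Bid: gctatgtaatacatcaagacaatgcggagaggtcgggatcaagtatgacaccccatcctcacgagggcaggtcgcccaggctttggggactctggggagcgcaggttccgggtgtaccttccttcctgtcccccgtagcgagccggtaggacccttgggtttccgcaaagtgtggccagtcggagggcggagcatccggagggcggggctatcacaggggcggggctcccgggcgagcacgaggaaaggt
Bcl2l11: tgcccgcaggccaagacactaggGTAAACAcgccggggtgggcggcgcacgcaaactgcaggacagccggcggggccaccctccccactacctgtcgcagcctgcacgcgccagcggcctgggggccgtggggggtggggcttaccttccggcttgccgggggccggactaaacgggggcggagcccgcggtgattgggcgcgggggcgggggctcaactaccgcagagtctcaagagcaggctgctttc
Bbc3: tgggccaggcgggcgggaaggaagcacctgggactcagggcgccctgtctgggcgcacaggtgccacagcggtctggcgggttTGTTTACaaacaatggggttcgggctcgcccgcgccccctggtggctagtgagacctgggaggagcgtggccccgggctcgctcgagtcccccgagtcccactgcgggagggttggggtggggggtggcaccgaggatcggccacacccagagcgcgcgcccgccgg
The motifs searched, on both strands, were TTCNNNGAA for STAT factors, GTAAACA for FOXO factors and GGAATG for TEAD factors, the DNA-binding partners of the Hippo effectors YAP and TAZ. Windows were searched for 9 of the 10 members, Bax included and Pmaip1 not, and a gene with several starts had a window for each. The FOXO letters were found in 2 members, 227 to 221 bases before a start of Bcl2l11 and 167 to 161 bases before a start of Bbc3, and in 3.54% of the 27025 genes with windows. By window, they were in 2 of the 15 windows of members and 3.17% of all 32851 windows. The windows at other starts of Bcl2l11 and Bbc3 held no match and are not shown. The STAT letters were in 0 of the 9 members and 8.13% of genes, and the TEAD letters in 2 members (Bcl2l1 and Mcl1) and 14.4% of genes. The Bid window held none of them. These matches describe letters in a short window and say nothing of binding.

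The wider set of apoptosis genes held few calls. Of 67 genes in 5 lists of the same pathway, 57 were measured, 0 rose, 2 fell and 55 did not pass, beside 2.32% of all genes called. At an unadjusted limma p under 0.05 there were 13 of the 57, beside 14.9% of all genes. Groups did not overlap in 7 of the 57, beside 6.16% of all genes. As the lists were chosen with earlier results of these data known, these shares are no test of the lists. The median difference was -0.026, with 30 genes below 0 and 27 above.

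Among 15 of 19 other BCL-2 family genes, Bcl2a1a fell and the rest did not pass (median -0.037). Bcl2a1a encodes A1, a short-lived pro-survival protein of activated lymphocytes. It measured 6.89, 7.00, 6.83, 7.17 and 7.18 in wild type and 6.41, 6.20, 6.24 and 6.78 in null samples, a difference of -0.61 ± 0.13 (SE) without overlap, or 1.52-fold lower (limma adjusted p = 0.0338). The gene has near-identical copies to which probes can bind, and probe sets listed for several of them were not used, so which copy changed is uncertain. The call was kept without null array 4 (limma adjusted p = 0.0075) and with null arrays 2 and 4 left out (0.0231), and was lost without any 1 of the other arrays: wild-type array 1 (0.0615), 2 (0.0858), 3 (0.0504), 4 (0.0930) or 5 (0.0838), or null array 1 (0.0868), 2 (0.0705) or 3 (0.0984). Next by p was Bcl2l15 (difference -0.30, limma adjusted p = 0.219), whose means of 3.24 and 2.94 were under the median probe set.

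Downstream of the mitochondria, 0 of 14 measured genes for the pore, apoptosome and executioner caspases passed (median -0.067), with 4 at an unadjusted limma p under 0.05, where 14.9% of all genes lie. Diablo, which encodes the SMAC protein that blocks inhibitors of apoptosis, measured 6.42 to 6.63 in wild type and 6.68 to 7.08 in null samples. These groups did not overlap, but the difference of 0.26 did not pass (limma adjusted p = 0.199). Aifm1, for a mitochondrial protein that can be released in cell death, had a difference of -0.27 (limma adjusted p = 0.186).

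Inhibitors of apoptosis were 5 measured of 6, and 0 passed. At an unadjusted limma p under 0.05 there was 1, beside 14.9% of all genes. Birc2 (cIAP1, a ubiquitin ligase that restrains death receptor signalling) measured 8.31 to 8.60 in wild type and 8.07 to 8.30 in null samples, without overlap (difference -0.28, limma adjusted p = 0.129). Birc5 (survivin, of dividing cells) had a difference of -0.13 and a null SD of 0.60 (limma adjusted p = 0.870).

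In the death receptor arm that acts on BID protein, 0 of 10 measured genes passed (median 0.039). At an unadjusted limma p under 0.05 there were 2, beside 14.9% of all genes. Gzmb, the granule protease granzyme B, measured 5.93, 6.45, 5.75, 6.08 and 5.88 in wild type and 4.51, 4.83, 4.32 and 6.26 in null samples. Null array 4 lay within the wild-type range and the other null arrays well below it. The difference of -1.04 did not pass (limma adjusted p = 0.166), and without null array 4 it was -1.47 and passed (0.0030). Tnfrsf10b, a receptor for the death ligand TRAIL, had a difference of -0.40 (limma adjusted p = 0.124).

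Of 13 measured regulators of the members, 1 fell and 12 did not pass (median 0.040). At an unadjusted limma p under 0.05 there were 4, beside 14.9% of all genes. The list was chosen with earlier results of these data known, so such shares are no test of it. These 4 genes were also the ones without overlap, which was found for 6.16% of all genes. They were Il2rb, Usp9x and, named after their values were seen, Stat5b (difference -0.25, limma adjusted p = 0.198) and the stress factor gene Ddit3 (0.21, limma adjusted p = 0.218). Il2rb, the chain shared by the receptors for interleukin-2 and interleukin-15, measured 10.13 to 10.21 in wild type and 9.80, 9.99, 9.84 and 9.71 in null samples. The groups did not overlap (difference -0.33 ± 0.066, SE, limma adjusted p = 0.0305). This call was kept without null array 2 (limma adjusted p = 0.0129) and with null arrays 2 and 4 left out (0.0264), and was lost without wild-type array 1 (0.0676), 2 (0.0718), 3 (0.0729), 4 (0.0816) or 5 (0.0632), or null array 1 (0.0839), 3 (0.0744) or 4 (0.0586). Usp9x, which encodes an enzyme that stabilises MCL1 protein, measured 7.93 to 8.23 in wild type and 7.78, 7.46, 7.83 and 7.41 in null samples. All null values were below all wild-type values, but the difference of -0.44 did not pass (limma adjusted p = 0.0711), and it passed with the filter on dim genes (0.0438).

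**Figure D5:**
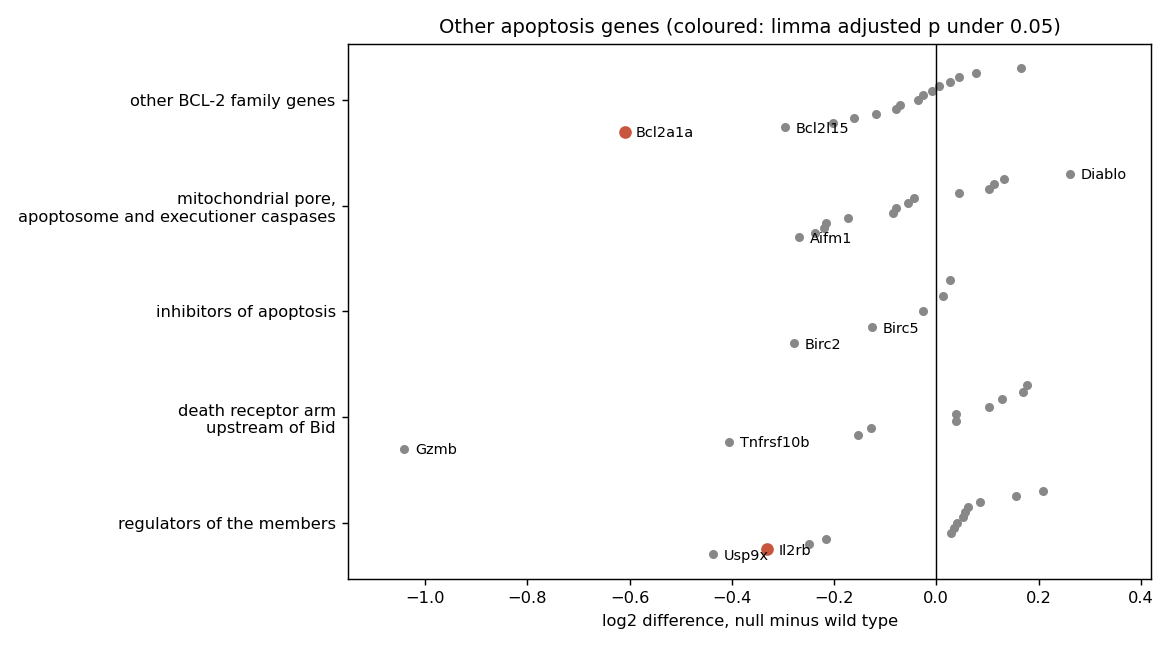
Log2 difference, null minus wild type (horizontal axis), of 57 other apoptosis genes in 5 lists, 1 point per gene, red where the limma adjusted p is under 0.05. Bcl2a1a at -0.61 and Il2rb at -0.33 are the 2 red points, and Gzmb at -1.04 is the point farthest from 0.

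The genes whose levels moved most like Bid across the 9 arrays were taken from the whole table, after each gene was centred on its own mean, by the root mean square difference in log2 units. They were Tcn2 (0.093), which encodes a vitamin B12 carrier, Lpin2 (0.10), a phosphatidate phosphatase gene, Glcci1 (0.11), Tspoap1 (0.11) and Cog6 (0.11), a gene of the Golgi tethering complex. Their differences ran from -0.45 to -0.37. As they were picked for likeness to a gene that was lower in null samples, this direction is set by the choice and is no result. Both means of Tspoap1 were under the median probe set.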

How the data were processed

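The authors deposited log2 values, 1 per probe set and array. The submitters' processing notes name RMA and Affymetrix Expression Console 1.1 (RMA includes background correction, quantile normalisation and probe summary). Per the labels' protocols, 1 to 20 ng of RNA was amplified with the NuGEN chemistry. The number of arrays limits the precision. Genes were named from the platform annotation: 23521 of 41345 probe sets had 1 symbol, 1814 several and 16010 none listed, and the probe set with the highest mean stood for each of 22180 genes. The array's genome build is not stated in the labels.

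Groups were compared with limma 3.58.1 in R 4.3.3 (lmFit and eBayes, two-sided, Benjamini-Hochberg over all genes, threshold 0.05), checked on simulated data, and single values by exact permutation over samples. Non-top probe sets were tested in a fit over all probe sets. Plots and tables used Python 3.11.15, pandas 2.3.3 and matplotlib 3.10.9.

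The members and lists were chosen with earlier results of these data known. Named were all members, Stk4, Stk3 and Foxp3, the passing genes and the 2 smallest p of each list, and the 5 genes most like each passing member. Predicted genes and Xist were left out of the last by name. No named probe set was found for the 4 erythroid markers. Alternatives were a replicate block, a filter on dim genes (mean above 4.05), other probe set rules, median centring, quantile normalisation, other eBayes and weight settings, a covariate for Hspa1a and Hspa1b, and leaving out arrays.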

Additional observations from a re-analysis of the deposited data

How the results depend on the processing

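The count of members called (1) became 0 with the replicate block, over every probe set, with quantile normalisation and with the Hspa1a and Hspa1b covariate, and ranged from 0 to 1 when arrays were left out in turn. With null arrays 2 and 4 left out it was 1 again, but Bak1 in place of Bid. The count of other apoptosis genes called (2) was 0 with the replicate block, 1 with quantile normalisation and 3 both with the filter on dim genes and with null arrays 2 and 4 left out, and ranged from 0 to 2 without single arrays. Over all genes, 271 to 594 were called without single arrays.

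Deviations of same-numbered wild-type and null samples had correlations of 0.042, -0.115, 0.011 and 0.041 for replicates 1 to 4. Of the 4 null samples, 0 correlated best with its own number. With so few samples this cannot tell whether same-numbered samples were handled together. With the replicate block 178 genes passed over all genes and Bid was -0.49 (limma adjusted p = 0.166).

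Some differences near 0 changed sign. Mcl1 was 0.0033 with the replicate block, 0.053 with averaged probe sets, 0.026 with quantile normalisation and from -0.12 to 0.0033 without single arrays. Pmaip1 was 0.018 and Bad 0.065 with quantile normalisation, and without single arrays they ran from -0.14 to 0.051 and from -0.054 to 0.031. Bcl2 minus Bcl2l11 was 0.081 with averaged probe sets, 0.18 without null arrays 2 and 4, and from -0.28 to 0.11 without single arrays. Mcl1 minus Pmaip1 was 0.099, 0.12 and from -0.085 to 0.13 in the same settings. The cause was not tested. Bcl2, Bcl2l1, Bcl2l11, Bak1, Bbc3 and Bid kept their direction in every alternative run. All of these but Bcl2 have 1 probe set, so the probe set rules, the filter on dim genes and the eBayes settings could not move their differences. Bbc3, which the filter removed, came close to 0 at -0.012 without wild-type array 3. For Bid, whose groups do not overlap, leaving out arrays could not change the direction.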
